A study of Drosophila melanogaster with 2 samples.

Results

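The regions described here are 394 autosomal ChIP-seq peaks of the transcription factor kay, all of them with the summit between genes. They were taken from the 4350 peaks that the authors called on both replicates together, of which 3854 were on the autosomes. The authors describe that list as peaks and background, and its deposited q-values reach 0.961, so a listed peak is not by itself shown to be bound. A peak was kept when its summit, the position of highest signal within it, was on 2L, 2R, 3L, 3R or 4, over 500 bp from every annotated transcription start and inside no annotated gene. Transposable elements did not count as genes. Position and annotation alone chose the members, and the authors' peak signal only ranked them. Chromatin immunoprecipitation with sequencing (ChIP-seq) had been done on whole adult male Drosophila melanogaster of unknown age from a transgenic line that stably carried kay with GFP at its C-terminal end, pulled down by an anti-GFP antibody. The 2 libraries, numbered 1 and 3 by the labels, were biological replicates of 1 group, so there was no contrast between conditions. Whole flies mix all tissues, and fewer cells that bind kay at a site and less binding per cell cannot be told apart. Chromatin had been sheared to between 200 and 800 bp.

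kay is the fly Fos protein, a basic leucine zipper factor that binds DNA as a dimer with the Jun protein Jra. The pair, called AP-1, acts downstream of the JNK kinase cascade in wound closure, stress responses and cell death, and it recognises the palindromic site TGACTCA, which reads TGAGTCA on the other strand. Sequence between genes holds many of the enhancers of the fly genome, which can act on promoters some distance away, so the nearest gene named below is a label for the place and not a known target.

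The exact AP-1 site was rare at these summits, and the sequences that had it are shown first because they are the places where the known site and a peak between genes met. Of the 200 highest members by signal, 9 had TGACTCA within 100 bp of the summit, and 7 of those are printed as 61 bp centred on the site. All are on the plus strand of the RefSeq Release 6 genome (build dm6), each is named by the gene with the nearest start, and capitals mark the site.

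lncRNA:CR44588 (chr2L:12011177-12011237): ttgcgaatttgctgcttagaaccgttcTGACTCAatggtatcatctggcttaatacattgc
scyl (chr3L:11261397-11261457): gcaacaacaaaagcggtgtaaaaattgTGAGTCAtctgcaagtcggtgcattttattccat
CG13405 (chr3L:85281-85341): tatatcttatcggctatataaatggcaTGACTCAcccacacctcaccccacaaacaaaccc
tara (chr3R:16224924-16224984): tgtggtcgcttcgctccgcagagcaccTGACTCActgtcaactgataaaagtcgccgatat
lncRNA:CR44953 (chr3R:29761817-29761877): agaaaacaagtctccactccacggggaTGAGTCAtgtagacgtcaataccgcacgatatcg
BNIP3 (chr3L:20514227-20514287): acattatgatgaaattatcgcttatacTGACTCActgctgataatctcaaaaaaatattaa
Jhbp13 (chr2L:13239363-13239423): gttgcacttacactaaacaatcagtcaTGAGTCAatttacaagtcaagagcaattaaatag

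The site at CG13405 lay 1 bp from the summit, and those of scyl and lncRNA:CR44588 lay 22 and 24 bp away. At the other 4 members the distance was between 44 and 52 bp. Each of the 7 windows had 1 copy of the site.

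A site with A or T in the middle, TGAATCA on one strand and TGATTCA on the other, was found more often than the exact site. The hexamer GATAAG, the core site of GATA factors, was found more often still. The examples are the 3 highest members with each motif whose sequence can be shown, on the plus strand of the same genome, again with capitals for the site. Both motifs were chosen after their values were seen. With the variant site:
CG15554 (chr3R:31127669-31127729): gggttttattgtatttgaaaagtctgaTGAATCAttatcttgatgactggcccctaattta
hry (chr3L:8680236-8680296): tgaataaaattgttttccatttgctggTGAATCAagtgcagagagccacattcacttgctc
CrebA (chr3L:15533404-15533464): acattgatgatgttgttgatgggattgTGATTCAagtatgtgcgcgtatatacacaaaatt

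With GATAAG, which reads CTTATC on the other strand, as 60 bp:
CG9498 (chr2L:6352118-6352177): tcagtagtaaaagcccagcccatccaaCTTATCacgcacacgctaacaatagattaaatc
Hacd1 (chr2L:12004488-12004547): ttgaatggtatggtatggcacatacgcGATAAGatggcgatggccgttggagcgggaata
nrv1 (chr2L:6789571-6789630): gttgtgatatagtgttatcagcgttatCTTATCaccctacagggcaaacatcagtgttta

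At hry, the gene of a basic helix-loop-helix repressor, the same summit had both motifs. The variant site lay 29 bp and GATAAG 63 bp from it. At CrebA, which encodes a basic leucine zipper regulator of secretory genes, the variant site lay 22 bp from the summit.

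Peaks between genes had a lower median signal than peaks in introns and at promoters. Their signal ran from 31.7 to 157.7 with a median of 38.9, against medians of 41.7 for 1766 intron peaks and 47.1 for 1337 promoter peaks, where promoter means within 500 bp of a start. The 357 exon peaks had a median of 38.5. The highest intron, promoter and exon peaks reached 336.8, 403.5 and 695.7. At a deposited q-value of 0.05 or below were 10 members (2.54%), against 6.85% of all autosomal pooled peaks. For intron peaks the share was 4.98% and for promoter peaks 10.5%. All members were 420 bp wide, and the interval of 43 (10.9%) touched an annotated gene.

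Members made up 10.2% of autosomal peaks (95% Wilson interval 9.31 to 11.2%), and their share was larger further down the list. It was 4.68% (21 of 449, 3.08 to 7.04%) among autosomal peaks in the 500 highest nuclear peaks. Below that it was 7.25% for ranks 501 to 1000, 9.42% for 1001 to 2000 and 10.8% for 2001 to 3000. In the lowest ranks, 3001 to 4317, it was 13.7% (160 of 1168, 11.8 to 15.8%). The intervals of the first and last of these ranges do not overlap. Wilson intervals cover counting error only.

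**Figure D1:**
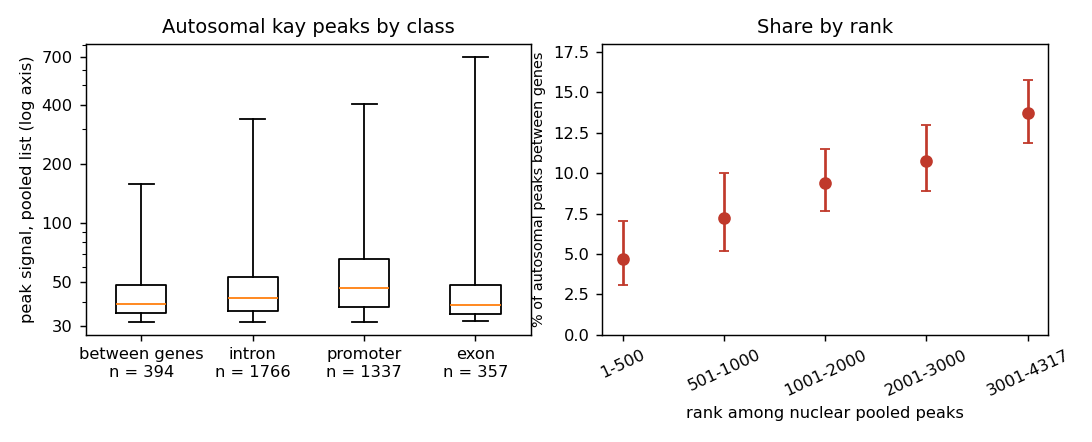
Left, the authors' peak signal in the pooled list (log axis) for 4 classes of autosomal peak, with boxes for the quartiles, a line for the median and whiskers to the lowest and highest peak. Right, the share of autosomal peaks that lay between genes by rank in the pooled list, with 95% Wilson intervals, from 4.68% in the 500 highest to 13.7% in the lowest ranks.

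The strongest member had its summit in the 437 bp gap between the convergent genes Sol1 and Cyp9f2, and its interval touched an annotated gene. Its nearest start was that of DNAlig3 (FBgn0286075), the gene of DNA ligase III, 1338 bp away. Its signal was 157.7 in the pooled list, 63.0 in replicate 1 and 96.0 in replicate 3, each list on a scale of its own. CG9498 followed with 133.7 in the pooled list, 64.2 in replicate 1 and 68.1 in replicate 3. CG5895 had 129.6, 62.5 and 70.2, with its summit in the gap towards Diap1, the gene of an inhibitor of apoptosis. Both replicates thus listed each of the 3 highest members.

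A pair of summits shared one place 3841 and 3624 bp from the start of CG31668, with pooled signals of 121.3 and 119.6. Both overlapped the same replicate peaks, of 79.6 in replicate 1 and 58.0 in replicate 3. In the same gap, 3288 bp upstream of COX7AL2, which encodes a subunit-7A-like protein of cytochrome c oxidase, a member had 103.3, with 32.6 in replicate 1 and 58.3 in replicate 3. NijA, the gene of the membrane protein Ninjurin A, had one at 106.7, with 61.4 in replicate 1 and 40.04 in replicate 3. So the order of these places differed between the replicates.

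At stv, the gene of a co-chaperone of the BAG family, the member 811 bp upstream had a pooled signal of 90.7 and 58.9 in replicate 3, and replicate 1 listed no peak there. CG5290 (73.8 pooled, 35.3 in replicate 3) and a member at lncRNA:CR44588 (84.9 pooled, 45.8 in replicate 3) were also without a replicate 1 peak. The other 22 of the 25 highest members were listed in both replicates. Mkp3, the gene of a phosphatase that turns off the MAP kinase ERK, had a pooled signal of 84.5. For jp, which encodes junctophilin, it was 83.0. The remaining named genes were CG4393 (96.1), CG15554 (86.0), CG1946 (76.3), CG10232 (75.6), lncRNA:CR45393 (73.3), an unnamed noncoding transcript (93.5), nrv1 (76.5), which encodes a beta subunit of the sodium pump, and Atet (73.3), which encodes an ABC transporter. Of the 25 highest summits, 20 lay upstream of the nearest start, as did 267 of all 394 members (67.8%). The rule left out gene bodies, which lie downstream of their starts.

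The replicates differed in how many of these places they listed. Replicate 1 had a peak overlapping 148 members (37.6%, 32.9 to 42.4%), and replicate 3 one overlapping 367 (93.1%, 90.2 to 95.2%). Over all autosomal pooled peaks these shares were 43.5% and 94%. Both lists had 139 of the members, 228 were in replicate 3 alone, 9 in replicate 1 alone and 18 in neither. The list of replicate 1 had 2060 peaks in all and that of replicate 3 had 13835. For the 100 highest members, replicate 1 listed 72 and replicate 3 listed 100, and for the other 294 they listed 76 and 267.

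Members were listed by replicate 1 less often than promoter peaks were, by 14.3 percentage points (37.6% against 51.9%, Fisher's exact test, two-sided, Benjamini-Hochberg adjusted p = 2.27e-06 over 4 comparisons). The difference from intron peaks (41.5%) did not pass the test (adjusted p = 0.219 by the same exact test). For replicate 3 neither difference passed, with promoter peaks at 94.99% and intron peaks at 93.5% (adjusted p = 0.219 and 0.822, exact test as above). Among only the 1000 highest nuclear peaks, the difference from promoters in replicate 1 was -1.35 points and did not pass the exact test (adjusted p = 1). The pooled list was called on these same replicates, so overlap with their lists is not independent of it. Replicate 1 listed 19 of 21 members in the 500 highest ranks and 27 of 160 in the lowest, and promoter peaks had the higher median signal. Whether the difference from promoters goes beyond signal was not tested. Peaks were treated as independent, so these p-values measure no spread between flies.

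**Figure D2:**
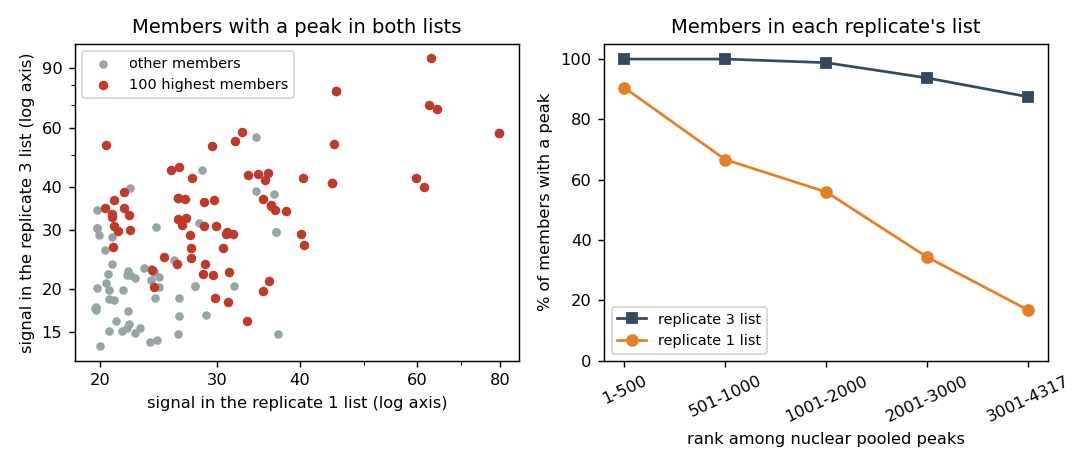
Left, the signal of the 139 members that both replicates listed, replicate 1 against replicate 3 on log axes, each list on a scale of its own, with the 100 highest members in red. Right, the percentage of members with a replicate 1 or replicate 3 peak by rank in the pooled list. Replicate 1 listed 19 of 21 members in the 500 highest ranks and 27 of 160 in the lowest, and replicate 3 listed 21 and 140.

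Over the 139 members in both lists, the signals of the replicates had a Spearman rho of 0.482. Neighbouring members can share a replicate peak, so the points are not all separate. Peaks of the authors' optimal list, made with the irreproducible discovery rate (IDR) procedure, overlapped 7 members (1.78%, 0.863 to 3.62%), against 5.11% of all autosomal pooled peaks. They were DNAlig3, CG9498, CG5895, both summits near CG31668 and a pair of summits near lncRNA:CR44588. Neighbouring members can overlap the same entry, and by its own summits that list had 6 autosomal peaks between genes. Promoter peaks overlapped that list more often, at 7.26% (adjusted p = 2.14e-05, Fisher's exact test over 2 comparisons), as did intron peaks, at 3.85% (adjusted p = 0.0467, same test). Overlap with that list followed the pooled signal, however. Members of 119.6 or more overlapped it, and below that only the summit of 73.7 near lncRNA:CR44588, beside one of 123.3. Whether these comparisons go beyond the difference in signal was not tested, so they are not taken as separate evidence of reproducibility. Within the 1000 highest nuclear peaks the difference from promoters was -7.04 points and did not pass the exact test (adjusted p = 0.546).

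The exact AP-1 site lay within 100 bp of the summit of 13 members (3.30%, 1.94 to 5.56%), against 5.53% of all autosomal pooled peaks. Of all 154270 windows between genes that met the same rule, as wide as the search,, 1.46% had it. Intron peaks had it at 6.00% and promoter peaks at 6.28%, against 1.89% and 1.76% of the windows of those classes. The difference of members from intron peaks was -2.70 points and from promoter peaks -2.98 points, and neither passed the test (adjusted p = 0.173 and 0.170, Fisher's exact test over 14 comparisons). Within 50 bp the shares were 2.54% of members, 3.51% of intron peaks and 3.89% of promoter peaks, differences of -0.97 and -1.35 points that did not pass (adjusted p = 1 for both, exact test). Within 200 bp of the summit both passed, with 4.82% of members, 9.51% of intron peaks and 9.80% of promoter peaks (adjusted p = 0.00712 and 0.00703, exact test). They also passed in the list of replicate 3 alone, by -1.52 and -1.74 points (adjusted p = 0.00591 and 0.00358), and not in that of replicate 1, by -3.31 and -4.48 points (adjusted p = 0.641 and 0.449, exact test).

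The 13 members with the site had signals from 36.1 to 123.3, and replicate 1 listed 6 of them and replicate 3 all 13. At lncRNA:CR44588 the pooled signal was 123.3, with 45.3 in replicate 1 and 77.1 in replicate 3. The summit near scyl, which encodes an inhibitor of TOR signalling, had 63.3 pooled, 26.8 in replicate 1 and 36.9 in replicate 3. For tara, the gene of a transcriptional coregulator, the values were 52.4, 26.2 and 37.3. These 3 and CG13405 (55.3 pooled, 26.1 and 23.8) were listed by both replicates. The replicate peaks at tara were shared with a stronger neighbouring member (62.9 pooled) that lacked the site. Those at lncRNA:CR44588 were shared with a weaker one (73.7 pooled), also without it.

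Replicate 3 alone listed the members at lncRNA:CR44953 (41.5 pooled, 35.5 in replicate 3), BNIP3 (39.8 and 35.4) and Jhbp13 (38.9 and 25.9). BNIP3 encodes a mitochondrial receptor of autophagy. The lncRNA:CR44953 member lay in the gap between that gene and kay itself, 4198 bp from the kay gene. It was the sole member with kay as a flanking gene. By rank, 6 of the 100 highest members and 7 of the other 294 had the AP-1 site, a difference that did not pass the test (adjusted p = 0.359, Fisher's exact test over 7 motifs).

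With any middle base, TGANTCA, the site was at 44 members (11.2%), against 3.58% of the windows between genes. Intron peaks had it at 11.4% and promoter peaks at 11.2%, and the differences of members from them, -0.27 and -0.052 points, did not pass the test (adjusted p = 1 for both, Fisher's exact test). TGAATCA made up 31 of them (7.87%, 5.60 to 11.0%), against 2.16% of windows, a ratio of 3.65. In introns the variant was at 5.72% of peaks and 2.64% of windows, and at promoters at 5.53% and 2.50%. No member had both TGAATCA and TGACTCA. Peaks between genes in the replicates' own lists had the variant at 6.96% (replicate 1) and 4.22% (replicate 3). In those lists intron peaks had it at 5.61% and 4.58%, and promoter peaks at 5.89% and 4.46%. The higher share between genes was thus not seen in the replicate 3 list. No test was made of the variant, since it was picked from these values.

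GATAAG was the hexamer with the highest ratio to windows among those found in 20 or more members. It lay within 100 bp of the summit of 80 members (20.3%, 16.6 to 24.6%), against 7.97% of windows between genes. Intron peaks had it at 19.7% (windows 8.65%) and promoter peaks at 18.8% (windows 10.1%). In the pooled list the shares of the 3 classes of peak thus lay within a few points. In peaks between genes of the replicates' own lists it was at 23.4% (replicate 1) and 11.4% (replicate 3). Intron peaks of those lists had it at 21.6% and 15.3%, and promoter peaks at 20.9% and 16.6%. In replicate 3 the share between genes was thus the lowest of the 3 classes. Of the 80 members, 16 had more than 1 copy and 24 were among the 100 highest of the 394. Replicate 1 listed 40 of the 80, against 148 of all 394 members (37.6%). Of the same 80, 3 also had TGACTCA and 7 also TGAATCA, and 280 members had none of the 3 motifs within 100 bp. The median distance from motif to summit was 46 bp for GATAAG and for TGAATCA and 33 bp for TGACTCA.

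Base composition differed between members and windows, with a median GC content of 35.3% against 40.8%. Within windows and members of 30 to 40% GC, GATAAG was at 21.3% of members and 8.83% of windows, and TGAATCA at 7.83% and 2.77%. GATA factors bind GATAAG in the fly gut, blood, fat body and heart. Which factor, if any, was bound at these places was not measured.

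The 6 other motifs, searched on both strands within 100 bp, gave no difference that passed the test (Fisher's exact test, adjusted over the same 14 comparisons). GAGAGAG, the site of GAGA factor, was at 15 members (3.81%) against 7.26% of promoter peaks (adjusted p = 0.170, exact test) and 4.93% of intron peaks (adjusted p = 0.758), and 2.14% of windows between genes had it. It was at 8 of the 100 highest members and 7 of the other 294 (adjusted p = 0.198, exact test). The forkhead site TGTTTAC was at 26 members (6.60%) and 3.78% of windows. TATCGATA, the site of DREF, was at 5 members, the E-box CACGTG at 8, the Zelda site CAGGTAG at 3 and the CRE site TGACGTCA at 1. Windows had these 4 at 0.428%, 2.22%, 0.893% and 0.307%.

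**Figure D3:**
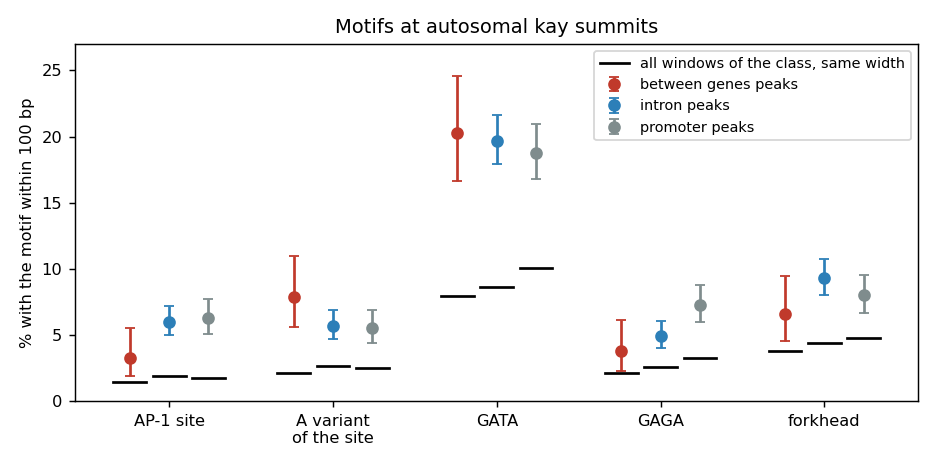
Percentage of autosomal kay peaks with a motif within 100 bp of the summit, for peaks between genes (red), in introns (blue) and at promoters (grey), with 95% Wilson intervals. Black bars give the share of all windows of the class that had it. GATAAG was at 20.3%, 19.7% and 18.8% of the 3 classes, and the exact AP-1 site at 3.30%, 6.00% and 6.28%.

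Members lay nearer to gene starts than most sequence that the rule allowed. The median distance to the nearest start was 1940.5 bp (quartiles 951 and 4264 bp), against 5903 bp for the windows, and 87 members (22.1%) were over 5 kb away, against 54.9% of windows. The gap between the flanking genes had a median of 5886 bp, against 19166 bp for windows. Of the members, 267 (67.8%) were upstream of their nearest start. The rule left out gene bodies, which lie downstream of their starts, and this share was not counted for windows. The nearest start was that of a protein-coding gene for 290 (73.6%), of a noncoding RNA gene for 93 and of a tRNA gene for 9. Between divergent genes, where both starts face the gap, were 118 (29.9%), against 20.6% of windows. Another 176 (44.7%) lay between genes in tandem, against 50.2%, and 96 (24.4%) between convergent ones, against 25.3%.

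At the 500 bp limit, the members just inside were at CG30054 (501 bp, signal 38.0), ringer (504 bp, 37.3) and C1GalTA (506 bp, 50.4). Just outside were peaks at CG10650 (500 bp, 32.5), an unnamed transcript on 3R (482 bp, 39.4) and by (482 bp, 154.2). The farthest member was 74638 bp from any start, near the end of chromosome 4 beyond Cadps. In the annotation 10 members (2.54%) had the summit in a transposable element, against 10.9% of windows, and 21 (5.33%) had over 50% of the window soft-masked, against 16.0%. Windows were not filtered for sequence where reads can be placed, here or in the distances above. Whether that accounts for these differences was not tested. One member, in a HeT-A telomere element beyond CG9380, had a summit sequence of 51 bp that occurs more than once in the genome, against 0.0519% of all autosomal pooled peaks. No promoter peak had such a sequence, and the difference did not pass the test (adjusted p = 0.332, Fisher's exact test).

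Chromosome 4, the small and largely heterochromatic autosome, held 26 members, 6.60% of them on 0.791% of the sequence that the rule allowed. That was 106 per Mb, against 11.96 per Mb on the other arms, where it ranged from 9.67 on 2R to 14.1 on 3L. Intron peaks were dense there too, at 186 against 39.6 per Mb, and promoter peaks, at 394 against 85.2 per Mb. The members on chromosome 4 had signals from 31.7 to 68.9. All 26 were listed by replicate 3 and 9 by replicate 1, and the optimal list held 0 of the 232 pooled peaks on that chromosome. No control library was analysed here, so these densities are not set against the density that a control would give on that chromosome. The highest was near CaMKII, the gene of a calcium-dependent kinase.

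**Figure D4:**
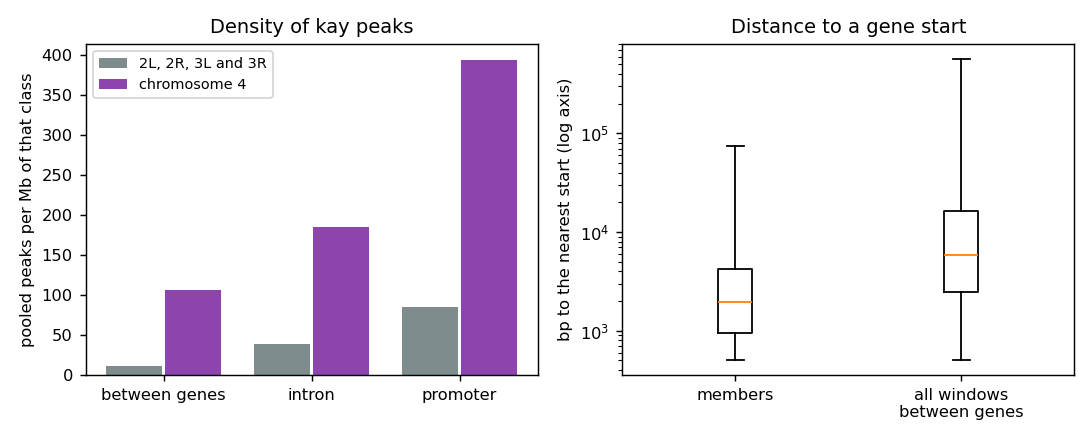
Left, pooled kay peaks per Mb of sequence of each class, on chromosome 4 (purple) and on the other autosomal arms (grey), 106 against 11.96 between genes. Right, distance to the nearest gene start (log axis) for the 394 members and all windows between genes, with boxes for the quartiles and whiskers to the lowest and highest value; the medians are 1940.5 and 5903 bp.

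Members were joined into runs. Joining summits within 5 kb of each other gave 283 places, of which 65 had more than 1 member and held 176 of the 394, and 26 had at least 3. Some summits in a run were nearer to each other than the 420 bp width of a peak, so their peaks overlapped. Runs were not counted for other classes of peak, so these counts have no background to stand against. One run held 8 members over 7884 bp on 2L, from Hacd1, an enzyme gene of fatty acid elongation, past Rh5, a blue-sensitive rhodopsin gene, to lncRNA:CR44588. Their signals were from 53.7 to 123.3 and all 8 were among the 100 highest members. Replicate 3 listed all 8 and replicate 1 listed 7, counted as members, since some neighbours shared a replicate peak. The AP-1 site was at 1 of them and GATAAG at 2.

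The run with the most members, 9 over 14839 bp on 3L, lay between lncRNA:CR44526 and SrpRbeta, the gene of a subunit of the signal recognition particle receptor. Signals there were lower, from 31.9 to 60.8. Replicate 3 listed 8 and replicate 1 listed 4, again with neighbours that shared a replicate peak. GATAAG was at 4 of the 9 and the AP-1 site at none.

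**Figure D5:**
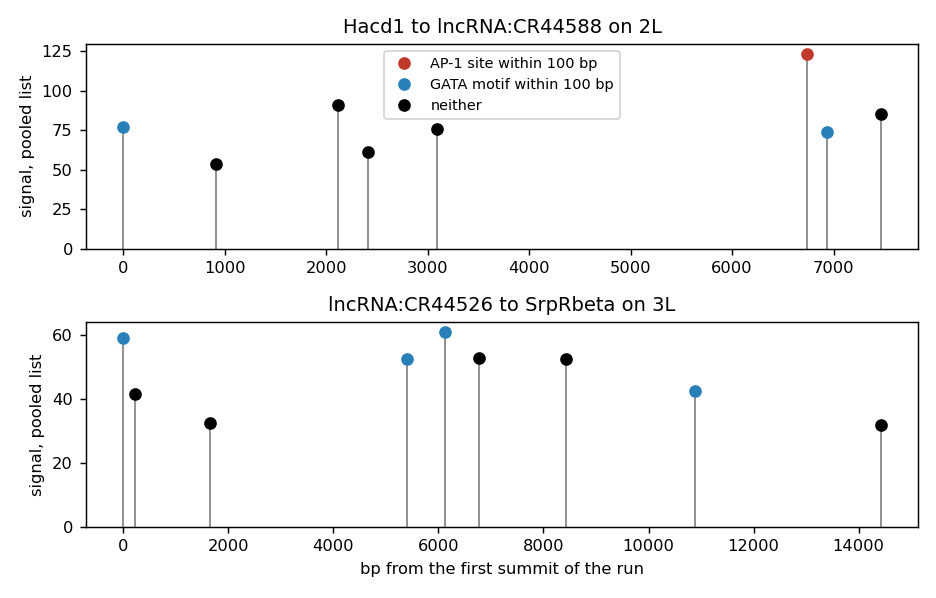
Summits of the runs on 2L (above) and 3L (below), as distance from the first summit in bp against signal in the pooled list. Colour marks a motif within 100 bp, red for the AP-1 site, blue for GATAAG and black for neither. The 8 summits on 2L have signals of 53.7 or more and the 9 on 3L of 60.8 or less.

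The members had 299 distinct nearest genes. Within 10 kb, 215 of the 11749 autosomal protein-coding genes (1.83%) were nearest to at least 1 member, 37 of them to more than 1. Rh5, CG5290, hry and Alp13 were nearest to 4 each. The gene lists below were read for their counts alone, with no test, and each count stands against that 1.83%. They are partial, and other genes of the same kinds can be near members. Examples are scyl for TOR signalling (63.3 and 34.3), Pdk1, a kinase gene of the insulin pathway (39.03), and RpS23, a ribosomal protein gene (52.9). The homeobox genes NK7.1 and Dr, both with 42.7 at their highest member, were also missing from the list of that kind. All these were named after their values were seen.

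Of genes that act with or like kay, 3 of 17 basic leucine zipper genes were nearest to a member. CrebA had a pooled signal of 64.5, with 29.9 in replicate 1 and 30.7 in replicate 3. At cnc, the fly Nrf2 gene of the oxidative stress response, it was 42.4 and replicate 3 alone listed it, at 24.0. Xrp1, a stress-response gene of that family, had 34.8, with 27.01 in replicate 3 alone. The JNK pathway and its known targets had 1 of 24. That was hid, which encodes an activator of cell death, with members of 41.8 and 35.1. The first was listed by replicate 1 at 20.4 and by replicate 3 at 20.8, and the second by replicate 3 alone.

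Insulin and TOR signalling had 2 of 19. Upstream of foxo, the forkhead factor that insulin signalling holds inactive, were 3 members with pooled signals of 70.0, 54.5 and 33.02. The highest was 5296 bp from the start, at 20.4 in replicate 1 and 53.2 in replicate 3, and neither replicate listed the lowest. The member nearest to Thor, which encodes the 4E-BP repressor of translation, had 52.6, with 33.3 in replicate 1 and 16.1 in replicate 3.

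Heat shock and oxidative stress had 3 of 27, namely stv, cnc and Hsp27, a small heat shock protein gene with 43.4. Toll and Imd immunity had 2 of 29, PGRP-SC2 (56.3), an enzyme that cleaves bacterial peptidoglycan, and spz (43.1), the ligand of Toll. The ecdysone and juvenile hormone list had Eip93F (47.1), an ecdysone-induced transcription factor, 1 of 16. The actin cytoskeleton list had Act88F (43.4), the flight muscle actin, and Mhc (38.4), the muscle myosin heavy chain, 2 of 25. Among the 54 listed homeobox genes were exex (38.4) and vvl (32.0). Single genes came from the Polycomb and GAGA factor list (psq, 65.6, 1 of 20), from developmental signalling (pan, 45.8, the TCF factor of Wingless signalling, 1 of 35) and from the listed ribosomal proteins (RpS26, 43.8, 1 of 27). None of 8 JAK-STAT, 10 clock and 25 testis genes was nearest to a member. Of the 402 symbols, 11 were not matched to the annotation, and by unique synonym they added hry (4 members, the highest at 65.7) and MsrA (1 member).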

How the data were processed

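Peaks came from 4 deposited lists on dm6, made from 2 libraries: 1 per replicate, 1 on both replicates pooled and the optimal IDR list. The deposited listing of files says that each replicate list was made from its own alignments and 1 control file. The aligner, caller, settings and read depth are not given in the sources. The authors' peak signal has a scale of its own in each list, and the authors' −log10 q-value was turned into a q-value. Lists on dm3 were not used.

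Summits were joined to the RefSeq Release 6 sequence and the Ensembl release 115 annotation. Classes were assigned in the order promoter, exon, intron, between genes. A replicate peak counted when it overlapped by at least 1 bp, and the one with the highest signal was taken. Shares have 95% Wilson intervals and were compared by Fisher's exact test, two-sided, adjusted by Benjamini-Hochberg to a threshold of 0.05 (scipy 1.17.1, statsmodels 0.14.6, Python 3.11.15). Windows as wide as the motif search tiled each class as a census, and only windows with undetermined bases were left out. The steps were tested on simulated data.

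Named genes were the nearest to the 25 highest members, members among the 200 highest with the AP-1 site, and up to 3 per list within 10 kb. Other genes were named after their values were seen: the nearest to 4 members, those at the 500 bp limit, at the ends of arms and in runs, and those next to the motifs chosen late. Members and lists were chosen with earlier results of these data known. The alternatives changed the distance, annotation, list, window and motif.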

Additional observations from a re-analysis of the deposited data

How the results depend on the processing

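Of 114 alternative values, 94 kept their direction and side of the threshold, or stayed close to the value reported. The number of members was 190 at over 2000 bp from starts, 6 in the optimal list and 10 at a q-value of at most 0.05, and between 158 and 1706 in the list of 1 replicate alone. The AP-1 share was 16.7% in the optimal list (1 of 6, 3.01 to 56.4%), 10% of the 10 members at that q-value and 11.2% for TGANTCA. Within 200 bp of the summit, the AP-1 differences from intron and promoter peaks were -4.69 and -4.98 points and passed the test, and 4 differences of other motifs passed where 0 did within 100 bp. In single replicate lists the AP-1 differences ran from -3.31 to -1.52 points (introns) and from -4.48 to -1.74 points (promoters), between 0 and 5 other motif differences passed, and 100 highest against other members ran from -2.17 to 2.82 points without passing. At over 250 bp from starts 1 other motif difference passed. The replicate 1 difference from promoter peaks was 14.9 points at that q-value (10 members) and -1.35 among the 1000 highest nuclear peaks, where the optimal list difference was -7.04, and none of these passed. With transposable elements counted as genes, an alternative added after seeing the data like those without chromosome 4 and with 1 member per run, the repeated-summit difference was -0.137 points. The cause of these changes was not tested. No paired analysis was possible because both libraries belong to 1 group. Depth per library is unknown, so a peak missing from replicate 1 is not shown to be absent there.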

Other observations

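Among the 9 members nearest to a tRNA gene start, signals ran from 32.8 to 48.4. The highest lay 1658 bp from tRNA:Val-CAC-1-1, and a second member lay 1439 bp from the same start with a signal of 34.0. Replicate 1 listed 1 of the 9, near tRNA:Ile-TAT-1-2 and 13939 bp from its start. Replicate 3 listed all but the member near tRNA:Leu-CAG-1-1.

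Far from any start were 32 members at over 10 kb. One lay in the gap next to rpr, a cell death activator like hid, 26281 bp from its start. Its signal was 32.2, and replicate 3 alone listed it, at 16.7. Another 3 lay between NijA and CG43245, from 30901 to 34009 bp from the start of CG43245, with signals of 44.3, 40.6 and 41.6, and replicate 3 alone listed them.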
